A study of Mus musculus with 6 samples.

Results

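Transcripts of 7 genes that carry thyroid hormone into cells, convert it, bind it or respond to it were followed in interscapular brown fat, taken as the entire depot from newborn mice. They were the rows of the deposited table with the symbols Slc16a10, Dio2, Dio3, Crym, Thra, Thrb and Thrsp, 7 of 19241 genes listed. The table holds 6 bulk RNA-seq libraries. The 3 libraries called WT came from newborns whose Fstl1 gene, which encodes the secreted glycoprotein follistatin-like 1, is labelled as floxed, and the series' design text calls them wildtype. The 3 called KO came from newborns labelled as Myf5-Fstl1 knockouts, in which, by the series title, the Myf5 lineage lacks FSTL1. Cells of other lineages in the depot are not targeted. The labels give neither sex nor exact age nor what drives the deletion, and they do not say whether a library is 1 animal or a pool, so the p-values measure the spread between these libraries, which may be technical. The question is what loss of Fstl1 from the Myf5 lineage, the origin of skeletal muscle and of much of this fat, does to transcripts of the depot.

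The thyroid gland releases mostly thyroxine (T4), a prohormone, and less of the active triiodothyronine (T3). Membrane transporters bring both into cells, the selenoenzyme type 2 deiodinase makes T3 from T4 inside the cell, and type 3 deiodinase inactivates both. T3 then binds nuclear receptors that sit on DNA with retinoid X receptors. Brown fat is a tissue in which local T3 production by type 2 deiodinase, induced by noradrenaline through cyclic AMP, is known to be needed for full heat production and for Ucp1 transcription.

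FPKM (fragments scaled by transcript length and by mapped fragments) summed to between 486449 and 556968 per library, which does not measure library size. A rough estimate from the steps between low values put the libraries at 13900000 to 15000000 reads. Fstl1 lay at 54.4 to 130.04 FPKM in WT and at 7.93 to 13.1 FPKM in KO. Ucp1, which defines brown adipocytes, was at 1695 FPKM or more in every library. Among 8 skeletal muscle marker genes the summed level was 257.9 FPKM in KO replicate 1 and 1038 to 1520 FPKM in the other 5 libraries. Thyroglobulin (Tg), which defines thyroid tissue, did not exceed 0.2 FPKM. The Y-linked genes Ddx3y and Eif2s3y lay at 59.5 to 99.3 FPKM in KO and at 0.23 FPKM or less in WT, and Xist at 44.8 to 85.5 FPKM in WT and at 0.92 FPKM or less in KO. Sex and genotype therefore cannot be told apart in any difference given here.

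Of the 7 genes 5 were tested and 1 was called: Slc16a10 fell in KO to 48.3% of the WT mean. That call was lost in 5 of the 6 fits that left out a library. The other 4 genes high enough to test, Dio2, Thra, Thrb and Thrsp, did not pass the test, and their groups overlapped. Crym and Dio3 had a mean under 0.5 FPKM over the 6 libraries, the limit for testing, and the Crym values of KO all lay under those of WT. The test was limma on log2(FPKM + 1) with p-values adjusted over 13331 genes, and 2.21% of these genes were called at an adjusted p under 0.05, 1.01% as lower in KO. The WT and KO values did not overlap in 1 of the 5 tested members, and in 24.9% of all tested genes. The median log2 fold change of the 5 was −0.07, beside 0.01 over all genes tested. An exact two-sided permutation test of 3 libraries against 3 cannot give a p below 0.1.

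**Figure D1:**
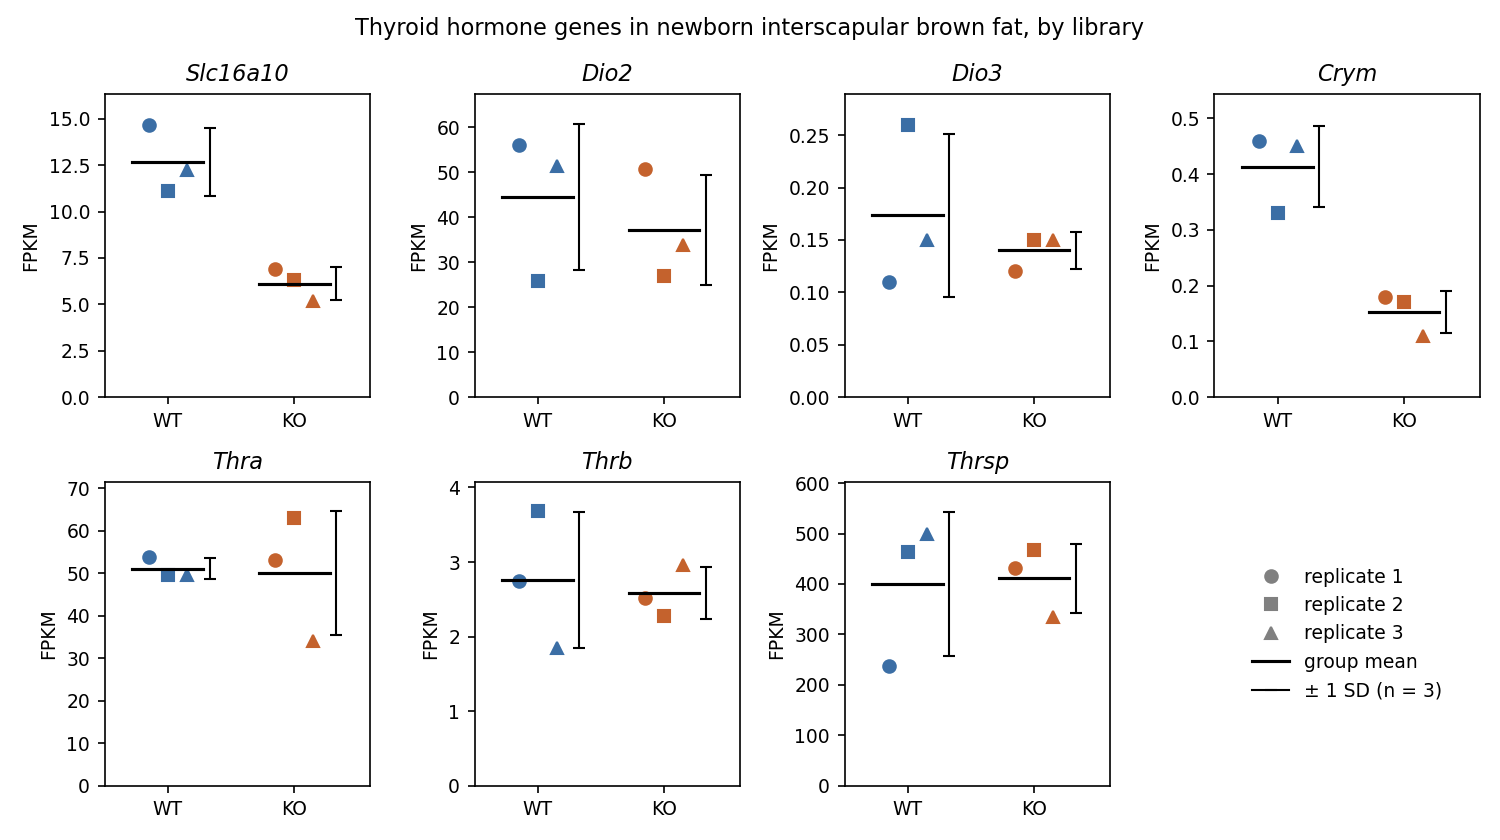
FPKM of the 7 genes in each library, with the linear axis of each panel starting at 0; symbols are the 3 replicates of a group, the horizontal line is the group mean and the bar beside it 1 SD on either side (n = 3). The KO symbols of Slc16a10 and Crym all lie under the WT symbols, and the groups overlap in the other 5 panels.

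The levels, which are per length and so comparable between genes, followed the order Thrsp, Thra, Dio2, Slc16a10, Thrb, Crym, Dio3 by mean over the 6 libraries. Thrsp averaged 405.4 FPKM, Thra 50.5 FPKM, Dio2 40.8 FPKM, Slc16a10 9.40 FPKM, Thrb 2.67 FPKM, Crym 0.283 FPKM and Dio3 0.157 FPKM. Thra and Dio2 were not separated: Thra was the higher in 4 of 6 libraries. Crym and Dio3 were not separated either, with Crym the higher in 5 of 6 libraries. Each of the other neighbours in this order kept its place in 6 of 6 libraries, and the lowest value of the one lay above the highest value of the next.

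Slc16a10 (Entrez gene 72472; GRCm38, chr10:40033532-40142270, minus strand) encodes MCT10, a transporter of aromatic amino acids that also carries T3 and T4. It measured 14.7, 11.1 and 12.2 FPKM (WT replicates 1, 2 and 3, the order used throughout) against 6.88, 6.30 and 5.18 FPKM (KO replicates 1, 2 and 3). All 3 KO libraries lay below all 3 WT libraries, and the gap between the groups was larger than the range within either. The means were 12.7 ± 1.82 FPKM in WT and 6.12 ± 0.864 FPKM in KO (SD, n = 3 each). By limma the log2 fold change was −0.94 (SE 0.16, 95% interval −1.31 to −0.57, adjusted p 0.0324). The exact two-sided permutation p was 0.1, the lowest that this design allows. In whole tissue, fewer cells that express a gene and less RNA per cell cannot be told apart.

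The direction of the Slc16a10 change was the same in all 17 alternatives, with log2 fold changes of −1.05 to −0.75, but the call was lost in 5 of the 6 fits that left out a library. With WT replicate 1 left out it still passed (limma, adjusted p 0.0462). Dropping WT replicate 2 gave an adjusted p of 0.0971, and dropping WT replicate 3 gave 0.102. When a KO library was dropped the limma adjusted p came to 0.0594 (replicate 1), 0.0821 (replicate 2) and 0.0927 (replicate 3). It was 0.0501 after rescaling to a common sum and 0.0828 without the filter on low values. Markers of brown adipocytes and adipocytes stood beside this fall: Elovl3 was the 1 called gene of 8 brown adipocyte markers and Plin1 and Lep the 2 called genes of 7 adipocyte markers, all 3 lower in KO, beside 2.21% called over all genes. Of the 8 brown adipocyte markers 5 were lower and 3 higher in KO (median log2 fold change −0.47), and of the 7 adipocyte markers 3 were lower and 4 higher (median 0.20). The summed level of the brown adipocyte markers was 7659 to 12430 FPKM in WT and 6261 to 7883 FPKM in KO. That of the adipocyte markers was 15850 to 19610 and 16330 to 18070 FPKM. Both sums rest on a few high genes. Ucp1 alone was at 4366 to 6255 FPKM in WT and 1695 to 3592 FPKM in KO. The groups of the other high brown adipocyte markers, Cidea, Cox7a1 and Cox8b, overlapped. In the adipocyte sum, Fabp4 alone was at 14059 to 17389 and 14000 to 15846 FPKM. None of these markers was at 0, and their part in the Slc16a10 result was not tested. Without KO replicate 1, the library low in muscle markers, the Slc16a10 log2 fold change was −1.02.

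**Figure D2:**
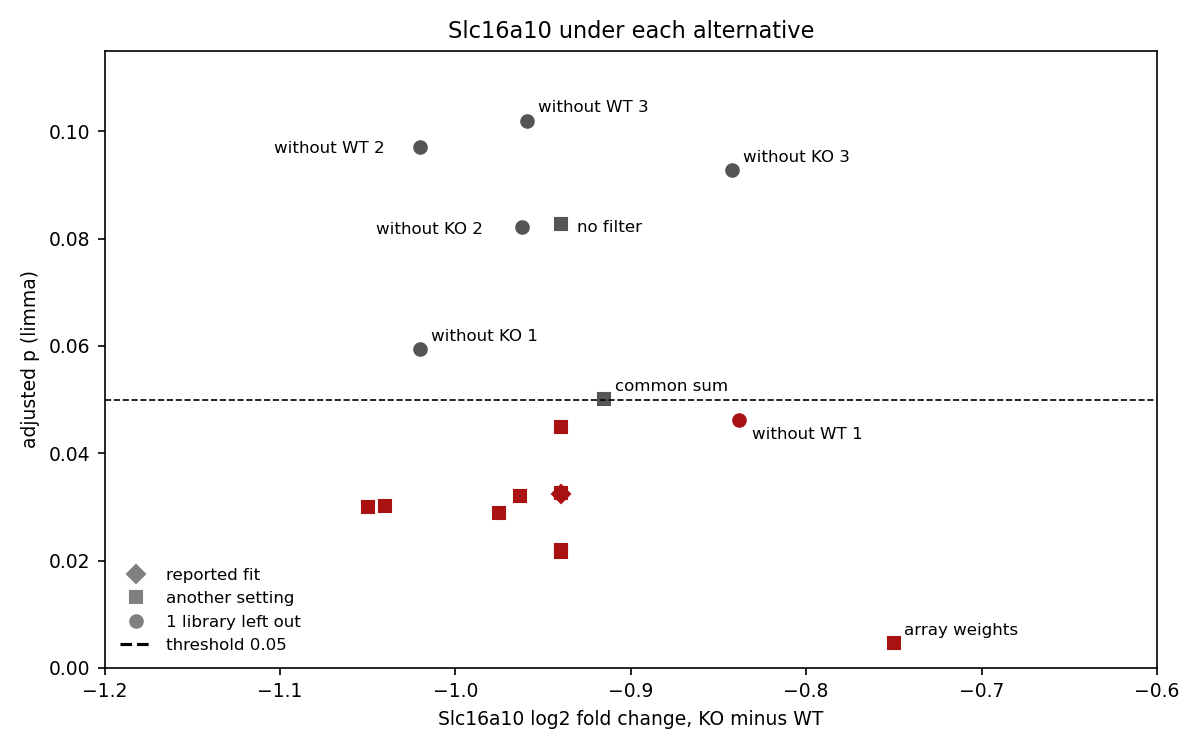
Slc16a10 under the reported fit (diamond), 11 other settings (squares) and the 6 fits that each leave out 1 library (circles): log2 fold change, KO minus WT, on the horizontal axis and limma adjusted p on the vertical axis, red where it is under 0.05 (dashed line). Every fold change is below 0, and 5 of the 6 circles lie above the line.

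By the root-mean-square distance between the 6 deviations of log2(FPKM + 1) from a gene's own mean, the genes most like Slc16a10 in a pool of 8374 genes averaging 5 FPKM or more were Atf5 (distance 0.0904), Mamld1 (0.092) and Aars (0.103). Atf5 encodes a transcription factor of the ATF/CREB group and Aars the cytosolic alanyl-tRNA synthetase. Atf5 measured 180.7, 148.2 and 180.3 FPKM (WT) against 94.8, 95.2 and 70.3 FPKM (KO). Aars measured 53.2, 41.3 and 42.2 FPKM (WT) against 24.4, 28.3 and 20.8 FPKM (KO). In both genes all KO libraries were below all WT libraries, as in Slc16a10. The 3 were picked for their likeness, so their own fold changes are no separate result.

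**Figure D3:**
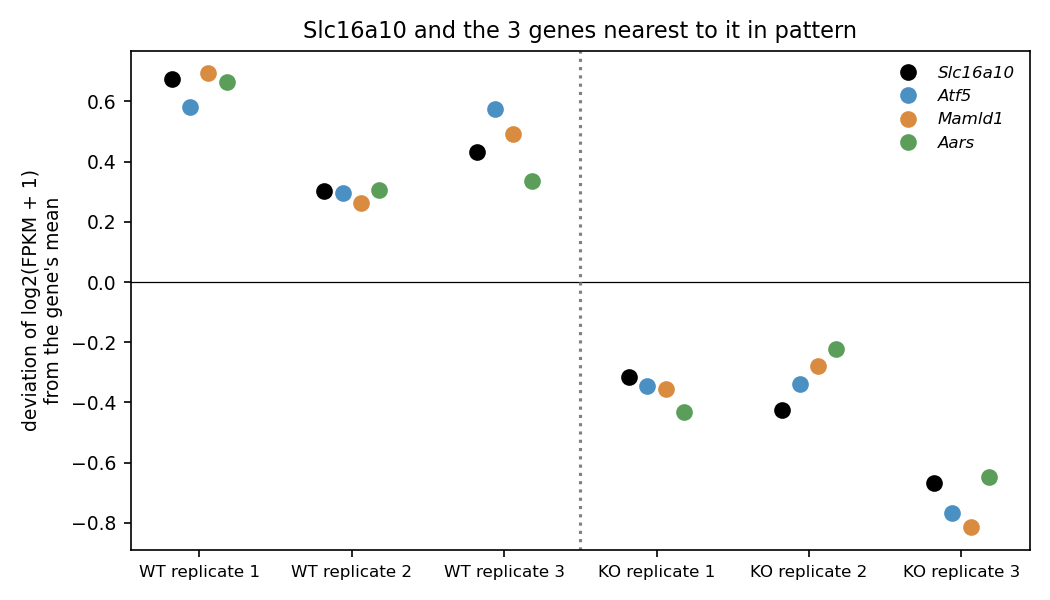
Slc16a10 and the 3 genes nearest to it, by library: log2(FPKM + 1) less the mean of that gene over the 6 libraries. All 4 genes are above 0 in each WT library and below 0 in each KO library, and KO replicate 3 is the lowest for all 4.

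The promoter window of Slc16a10 is shown because it is the gene that was called, beside those of Dio2, the deiodinase gene known for its cyclic AMP response, and Thrsp, the T3-responsive gene of the set. Each is the 250 bases before a transcript start in RefSeq on GRCm38.p6, 5′ to 3′ on the gene's own strand, and distances are counted from that start. The Slc16a10 window reaches into the gene interval given above, which ends at 40142270, so its start is not the outermost of the gene. All 3 genes lie on the minus strand, at chr10:40142255-40142504 for Slc16a10, chr12:90739039-90739288 for Dio2 and chr7:97417551-97417800 for Thrsp. Capitals mark the cyclic AMP response element TGACGTCA, or the CCAAT box and its reverse ATTGG.
Slc16a10: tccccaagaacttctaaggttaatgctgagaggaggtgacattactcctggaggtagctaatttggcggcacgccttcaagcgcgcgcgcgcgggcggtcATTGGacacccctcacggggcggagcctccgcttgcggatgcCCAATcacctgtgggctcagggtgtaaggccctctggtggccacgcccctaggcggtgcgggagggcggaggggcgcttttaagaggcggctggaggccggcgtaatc
Dio2: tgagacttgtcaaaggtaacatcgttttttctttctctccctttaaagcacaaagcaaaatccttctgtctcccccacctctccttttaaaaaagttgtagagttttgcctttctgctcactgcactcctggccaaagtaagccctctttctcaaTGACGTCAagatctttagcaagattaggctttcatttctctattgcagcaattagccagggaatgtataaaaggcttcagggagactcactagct
Thrsp: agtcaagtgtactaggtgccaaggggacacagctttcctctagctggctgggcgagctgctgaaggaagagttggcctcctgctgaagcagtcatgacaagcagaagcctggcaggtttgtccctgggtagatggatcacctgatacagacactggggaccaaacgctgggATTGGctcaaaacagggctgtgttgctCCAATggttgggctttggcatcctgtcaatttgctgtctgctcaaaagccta

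The Dio2 window holds TGACGTCA once, beginning 95 bases before the start, and 1.55% of all 32851 windows of this length hold it on either strand. The Slc16a10 window holds 2 CCAAT boxes, beginning 150 and 108 bases before the start, and the Thrsp window holds 2, at 79 and 52 bases. The Dio3 window also holds 2, and 33.8% of all windows hold at least 1 on either strand. The thyroid response half-site AGGTCA, or its reverse TGACCT, is in none of the 3 windows printed and in 14.0% of all windows. Among the members with windows it was found in 1 window of Thrb. A direct repeat of that half-site spaced by 4 bases, the classical arrangement for the receptors, was in 0 of the members' windows and in 5 of 32851. Windows of 5 members were in the sequence table, and those of Thra and Crym were not used here. A match is a run of letters, and it says nothing about binding in this tissue.

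The other transporter genes did not pass the test: of 6, 4 were tested, 2 of them higher and 2 lower in KO, with 0 called and 2 at an unadjusted p under 0.05. That unadjusted threshold was met by 19.2% of all genes tested, and 24.9% of them had groups without overlap. From each list the 3 genes with the smallest p are named, so separated groups among those are no separate result. Slc7a5 encodes LAT1, an amino acid exchanger that also carries iodothyronines, and measured 14.5, 6.86 and 7.45 FPKM (WT) against 4.26, 5.56 and 6.33 FPKM (KO). Its KO values lay below its WT values, with WT replicate 1 far above the others (limma log2 difference −0.67, SE 0.26, adjusted p 0.211). The related Slc7a8 (LAT2) had the opposite sign, 0.81 (limma, SE 0.34, adjusted p 0.244), with KO replicate 3 at 14.4 FPKM and the other libraries at 3.25 to 5.77 FPKM. Slc3a2, the heavy chain that both pair with, was at 63.6 to 108.5 FPKM in WT and 72.0 to 137.1 FPKM in KO (limma, log2 fold change 0.20, adjusted p 0.748). Slco1c1 and Slco1a4, organic anion transporters that carry T4, were below the limit for testing, with highest values of 0.3 and 0.84 FPKM.

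Dio2 (13371; chr12:90724552-90739038, minus strand) encodes type 2 deiodinase. It measured 56.1, 25.9 and 51.4 FPKM (WT) against 50.7, 26.9 and 33.9 FPKM (KO). WT replicate 2 and KO replicate 2 were almost the same and the lowest of their groups, and WT replicate 1 and KO replicate 1 were the highest. The means were 44.5 ± 16.2 FPKM in WT and 37.2 ± 12.3 FPKM in KO (SD, n = 3 each). By limma the log2 fold change was −0.23 (SE 0.31, adjusted p 0.744). Its 95% interval, −0.94 to 0.48, reaches from 0.522 to 1.40 times the WT level. With the replicate number fitted as a block the limma adjusted p of Dio2 was 0.519. A long noncoding RNA gene not in the table overlaps Dio2 over 939 bases on the opposite strand, and the use of strand is not given in the sources used here.

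Dio3 (107585; chr12:110279230-110281097, plus strand) encodes type 3 deiodinase and is an imprinted gene of the Dlk1-Dio3 cluster. It was barely present and measured 0.11, 0.26 and 0.15 FPKM (WT) against 0.12, 0.15 and 0.15 FPKM (KO). These values overlap and stand for an estimated 3.2 to 7.7 reads per library, below the limit for testing. How large a change would have shown at this depth was not tested. Within a library Dio2 was 99.7 to 510.0 times Dio3. On the log2 scale with 1 FPKM added to each, the ratio was 5.20 ± 0.69 in WT and 5.02 ± 0.47 in KO (SD, n = 3), a difference of −0.19 (exact permutation test, two-sided p 0.9). In each of the 6 libraries the transcript of the activating enzyme was far above that of the inactivating one.

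Genes around Dio3 were expressed at very different levels, and 0 of the 6 tested in the list of its imprinted cluster and of genes overlapping members were called. The list had a median log2 fold change of −0.09, with 3 genes higher and 3 lower and 2 at an unadjusted p under 0.05. Dlk1, an inhibitor of adipocyte differentiation, was at 138.7 to 171.6 FPKM in WT and 133.7 to 188.6 FPKM in KO, and the noncoding Meg3 at 132.6 to 174.1 and 127.7 to 210.7 FPKM. Mirg, a noncoding host of microRNAs, measured 9.96, 15.9 and 10.5 FPKM (WT) against 4.74, 6.39 and 7.5 FPKM (KO). Its groups did not overlap, and it missed the threshold (limma log2 difference −0.85, SE 0.22, adjusted p 0.0775). Rtl1 was at 3.50 ± 1.90 and 1.97 ± 1.15 FPKM (SD, n = 3; limma, log2 fold change −0.59, adjusted p 0.380). Dio3os is a noncoding gene whose interval on the chromosome is parted from the start of Dio3 by 1161 bases. It measured 0.34, 0.05 and 0.33 FPKM (WT) against 0.7, 0.49 and 0.38 FPKM (KO), below the limit for testing.

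Of 11 genes for partners of the deiodinases and for iodothyronine handling 7 were tested, 5 of them higher and 2 lower in KO. Limma called 0 of the 7, beside 2.21% over all genes. At the unadjusted threshold of 0.05 there was 1. Sephs2, which makes the selenium donor for selenoproteins, was at 161.4 to 202.5 FPKM in WT and 113.2 to 198.0 FPKM in KO (limma, log2 fold change −0.30, adjusted p 0.466). Secisbp2, which is needed to insert selenocysteine, was at 10.6 to 12.5 FPKM in WT and 12.8 to 15.5 FPKM in KO, without overlap (limma, 0.26, adjusted p 0.353). Usp33, Wsb1 and March6, which remove ubiquitin from type 2 deiodinase or attach it, had log2 fold changes of 0.01, 0.24 and 0.03 (limma, adjusted p 0.989, 0.486 and 0.947). For Sult1a1, a sulfotransferase gene, limma gave 0.43 (SE 0.19, adjusted p 0.256). Adrb3, the beta-adrenergic receptor upstream of cyclic AMP in brown fat, measured 1.21, 2.71 and 2.48 FPKM (WT) against 1.61, 1.64 and 0.49 FPKM (KO) (limma, −0.49, SE 0.28, adjusted p 0.369). Dio1, the type 1 deiodinase of liver and kidney, Iyd, Ttr and Gpbar1 did not exceed 0.07 FPKM in any library.

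Crym (12971; chr7:120186380-120201989, minus strand) encodes mu-crystallin, a cytosolic protein that binds T3. It measured 0.46, 0.33 and 0.45 FPKM (WT) against 0.18, 0.17 and 0.11 FPKM (KO). All KO values were below all WT values, and KO held 37.1% of the WT mean, but the libraries held an estimated 2.2 to 8.92 reads of this gene. Under the fit without a filter on low values, which called 0.182% of 19241 genes, its log2 fold change was −0.29 (limma, adjusted p 0.107). With 0.01 FPKM added in place of 1 the difference of log2 means was −1.39, so its size on the log scale was set by the added constant.

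Thra (21833; chr11:98740776-98769006, plus strand) encodes thyroid hormone receptor alpha, and the table gives 1 value for 2 RefSeq transcripts, so its isoforms cannot be told apart. It measured 53.9, 49.5 and 49.7 FPKM (WT) against 53.05, 62.9 and 34.2 FPKM (KO). The KO libraries lay both above and below the WT libraries, with means of 51.0 ± 2.47 FPKM in WT and 50.04 ± 14.6 FPKM in KO (SD, n = 3 each). The log2 fold change was −0.07, 95% interval −0.55 to 0.41 (limma, adjusted p 0.898). Thra shares 1075 bases with Nr1d1, which encodes the clock repressor REV-ERB alpha from the opposite strand. Nr1d1 measured 4.11, 9.13 and 8.68 FPKM (WT) against 9.40, 12.8 and 21.8 FPKM (KO) (limma log2 difference 0.90, SE 0.33, adjusted p 0.191). Without strand, reads from the shared bases cannot be assigned to one of the pair. KO replicate 3 was the highest library for Nr1d1 and the lowest for Thra, but KO replicate 2 was the highest for Thra and the next highest for Nr1d1. A part of shared reads in either value was not tested.

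Thrb (21834; chr14:17659225-18040097, plus strand) encodes receptor beta, the form known to drive Ucp1 transcription in brown fat. It measured 2.75, 3.68 and 1.85 FPKM (WT) against 2.52, 2.27 and 2.96 FPKM (KO), and the highest and the lowest libraries were both WT. The log2 fold change was −0.04, 95% interval −0.50 to 0.41 (limma, adjusted p 0.933). Thra made up 94.9 ± 1.68% of the summed receptor FPKM in WT and 94.7 ± 2.35% in KO (SD, n = 3), with single libraries at 92.02% to 96.5%. This share is of gene values. It counts the 2 Thra transcripts together, and what each of them encodes was not examined. The difference of −0.21 percentage points was smaller than the spread between libraries (exact permutation test, two-sided p 1.0).

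All 15 partners of the receptors were tested: 10 were higher and 5 lower in KO, 0 were called and 2 had an unadjusted p under 0.05. The median log2 fold change of these partners was 0.20, beside 0.01 over all genes. The 2 were retinoid X receptor genes with opposite signs. Rxrg measured 31.9, 38.2 and 37.3 FPKM (WT) against 22.8, 25.3 and 11.9 FPKM (KO) (limma log2 difference −0.87, SE 0.25, adjusted p 0.113). Rxra measured 18.6, 14.5 and 17.6 FPKM (WT) against 24.1, 18.9 and 24.1 FPKM (KO) (limma, 0.38, SE 0.16, adjusted p 0.240). Neither pair of groups overlapped, but both genes were named for their small p, and neither passed over all genes. Of the corepressor genes, Ncor1 had a log2 fold change of 0.04 and Hdac3 of −0.05 (limma, adjusted p 0.919 and 0.888). The coactivator gene Crebbp had 0.34 (limma, SE 0.16, adjusted p 0.298).

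Thrsp (21835; chr7:97412933-97417550, minus strand) encodes Spot 14, a nuclear protein that promotes fatty acid synthesis and responds to T3 in liver and fat. It measured 236.9, 463.1 and 499.9 FPKM (WT) against 431.6, 466.7 and 334.4 FPKM (KO). WT replicate 1 was the lowest library and WT replicate 3 the highest, and the KO libraries lay between. The means were 400.0 ± 142.4 FPKM in WT and 410.9 ± 68.5 FPKM in KO (SD, n = 3 each). The log2 fold change was 0.10, 95% interval −0.53 to 0.72, or 0.694 to 1.65 times the WT level (limma, adjusted p 0.887). Its paralog Mid1ip1 was at 6.17 to 8.45 FPKM in WT and 4.14 to 8.12 FPKM in KO (limma, −0.31, adjusted p 0.487).

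Of 4 genes for factors that drive Thrsp transcription 3 were lower and 1 higher in KO, with a median log2 fold change of −0.62, 0 called and 2 at an unadjusted p under 0.05. Srebf1, the sterol regulatory element binding protein 1 gene, measured 34.4, 41.9 and 42.8 FPKM (WT) against 26.0, 25.5 and 10.97 FPKM (KO) (limma log2 difference −0.99, SE 0.29, adjusted p 0.118). Nr1h3, the liver X receptor alpha gene, measured 30.9, 45.3 and 48.5 FPKM (WT) against 29.4, 25.8 and 26.2 FPKM (KO) (limma, −0.57, SE 0.18, adjusted p 0.141). In both, all KO libraries were below all WT libraries, but both were named for their small p, and 24.9% of all tested genes had groups without overlap. Mlxipl, which encodes the carbohydrate-responsive factor ChREBP, was at 36.6 to 54.9 FPKM in WT and 15.2 to 42.9 FPKM in KO (limma, −0.67, SE 0.33, adjusted p 0.307).

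Of 13 other genes known to respond to T3, 8 were lower and 5 higher in KO, with a median log2 fold change of −0.31, 0 called and 5 at an unadjusted p under 0.05, of which 3 were lower and 2 higher. They did not share a direction. Ucp1, the uncoupling protein, averaged 5582 ± 1055 FPKM in WT and 2729 ± 959.9 FPKM in KO (SD, n = 3; limma, −1.08, SE 0.28, adjusted p 0.0804). Slc2a4, the insulin-responsive glucose transporter, measured 61.6, 59.6 and 80.5 FPKM (WT) against 52.6, 28.7 and 15.6 FPKM (KO) (limma, −1.18, SE 0.36, adjusted p 0.123). Klf9, a transcription factor gene that also responds to glucocorticoids, measured 16.0, 22.9 and 14.4 FPKM (WT) against 42.4, 23.3 and 47.3 FPKM (KO) (limma, 1.01, SE 0.27, adjusted p 0.0921). In each of these 3 genes WT and KO did not overlap, with Klf9 parted only narrowly. They were named for their small p, and 24.9% of all tested genes had groups without overlap, so this is no separate result. Gpd2, the mitochondrial glycerol phosphate dehydrogenase, held 62.4% of its WT mean in KO (limma, −0.70, adjusted p 0.153). Of the lipogenic genes, Me1 had a log2 fold change of −0.41, Fasn of 0.36 and Acaca of −0.46 (limma, adjusted p 0.451, 0.773 and 0.447). Hr, a direct T3 target in brain and skin, was at 0.42 to 0.63 FPKM in both groups.

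Over the 6 lists together, 49 of 56 genes were tested, 26 were higher and 23 lower, and 0 were called. Their WT and KO values did not overlap in 30.6%, beside 24.9% of all tested genes, and 28.6% had an unadjusted p under 0.05, beside 19.2%. The lists were drawn up with earlier results of these data known, and nothing is read from these shares. With array weights, a fit that called 23.9% of all genes tested and rested largely on WT replicate 2, 15 of the 49 were called and Slc16a10 was the 1 member called (limma, log2 fold change −0.75, adjusted p 0.00458).

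**Figure D4:**
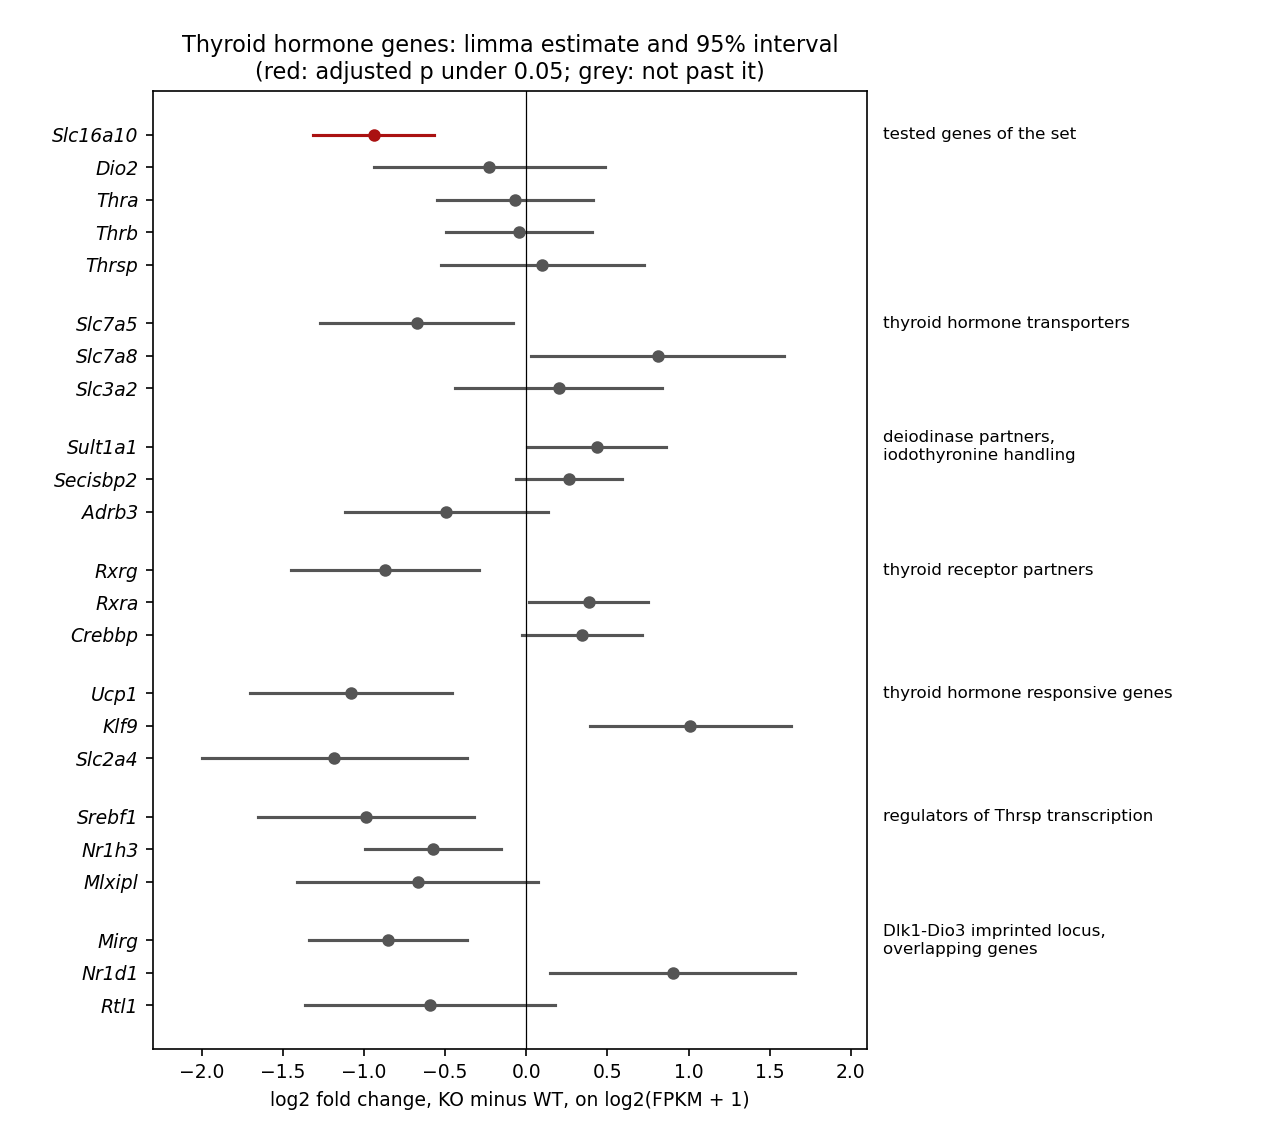
Log2 fold change, KO minus WT, on log2(FPKM + 1), with its 95% interval from limma, for the 5 tested genes of the set and the 3 genes with the smallest p of each of the 6 lists. Slc16a10, in red, is the 1 gene past an adjusted p of 0.05, and genes of the same list lie on both sides of 0 in 5 of the 6 lists.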

How the data were processed

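The labels describe 3 WT and 3 KO libraries of total RNA from newborn interscapular brown fat, with group and replicate number taken from the titles. The values are FPKM made by the authors, per the file headers, and rounded to 2 decimals. The submitters' processing notes name HISAT2 2.0.4, Bowtie2 2.2.5, DESeq2 and the build mm10 without a role. The counting tool, annotation release, use of strand and filters are not given in the sources used here. No value column was left out.

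Because FPKM carry no counts, log2(FPKM + 1) was fitted with limma 3.58.1 (R 4.3.3; lmFit, eBayes with trend, no covariates) for the 13331 genes averaging 0.5 FPKM or more, with Benjamini-Hochberg adjustment over all of them. The fold changes understate the change of low genes. The fit was also run on values simulated as independent and normal, which these libraries need not be. Its outcome is not reported here, and nothing is read from it. Depth was estimated from low FPKM (0.2 to 0.75) of genes with 1 transcript of 500 to 1300 nt, less an offset of 50 nt. It was taken as the depth that put the most values near whole reads. At that depth 67.7% to 73.6% of 237 to 285 such values per library came within 0.2 of whole reads, and 35.8% to 43.1% did with shuffled lengths. The shuffled lengths were scored at that depth alone, so the gap between the shares is in part set by the choice of depth. Read numbers are therefore rough. Positions and promoter windows came from RefSeq on GRCm38.p6 (99.8% of identifiers matched), and strands of genes and transcript lengths from GENCODE vM21.

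The members and lists were chosen with earlier results of these data known. Named were the 7 members and, from each of the 6 lists, the genes past the threshold and the 3 with the smallest p. For members with an SD of at least 0.5 (log2) the 3 nearest in pattern were named. Of genes overlapping a member, Nr1d1 had values. The noncoding gene at Dio2, LOC115488350 at Thrb (1663 bases) and the snoRNA gene Gm25613 at Slc16a10 (129 bases) had none. Other list genes were named after their values were seen. Some list genes are counted but not reported singly here. Alternatives were pseudocounts of 0.1 and 0.01, no filter or one at 5 FPKM, 3 scalings, 2 other variance models, array weights, the replicate block, and leaving out each library. Of 9 marker lists, endothelial, erythroid, Schwann cell, fibroblast, macrophage and muscle genes gave 0 calls, as did the list of liver and thyroid markers.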

Additional observations from a re-analysis of the deposited data

How the results depend on the processing

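Slc16a10 kept its direction in all 17 alternatives and the threshold in 10. It lost it at −0.94 without the filter (limma, adjusted p 0.0828), −0.915 with a common sum (0.0501), and in 5 of the 6 fits that left out 1 library, which ran from −1.02 to −0.838. Those fits hold fewer samples. Without the filter more genes are tested, and the unadjusted limma p of Slc16a10 was also higher, at 0.000647 against 0.000287. The cause of the lost calls was not tested. Dio2, Thra, Thrb and Thrsp passed under none. Array weights, whose estimate stopped before converging and gave WT replicate 2 a weight of 6.70 against 0.368 to 1.67, turned Dio2 (0.49), Thra (0.0117) and Thrsp (−0.116). Leaving out 1 library, Dio2 ran from −0.568 to −0.0249, Thra from −0.254 to 0.178, Thrb from −0.23 to 0.128 and Thrsp from −0.241 to 0.296, so the last 3 changed sign. The Dio2 to Dio3 ratio ran from −0.581 to 0.0528 and the Thra share from −1.13 to 1.11 percentage points, and Slc3a2 ran from −0.097 (without KO replicate 3) to 0.43. With pseudocounts of 0.1 and 0.01 the differences, by construction, were −0.153 and −0.213 for Dio3 and −1.02 and −1.39 for Crym.

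Over all genes 295 were called (134 lower), 35 without the filter, 191 with a common sum, 3181 with array weights, and 31 to 370 with 1 library left out: 31 lacking WT replicate 3, 39 lacking WT replicate 2, and 87, 89 and 121 lacking KO replicates 3, 2 and 1. The filter at 5 FPKM gave no value for Thrb, Adrb3 and Rtl1. Of the list genes 15 were called with array weights, and 0 to 1 with 1 library left out (Nr1h3 without WT replicate 1, Slc2a4 without KO replicate 1). Same-numbered libraries deviated together only weakly (r 0.0681, 0.0433 and 0.0433 across genes) and were not treated as pairs, though 6 of 6 libraries correlated best with their own number. The replicate block gave 167 calls, 135 of them among the 295, with Slc16a10 at an adjusted p of 0.0449. Depth limits Dio3 and Crym to a few reads.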

Other observations

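The receptor for thyrotropin, the pituitary hormone that drives the thyroid gland, is also expressed in fat. Tshr measured 3.93, 9.49 and 4.83 FPKM (WT) against 3.92, 3.87 and 3.04 FPKM (KO), so the KO values lay below the WT values, with WT replicate 1 and KO replicate 1 almost equal and WT replicate 2 far above the rest. It did not pass the test (limma log2 difference −0.55, SE 0.26, adjusted p 0.304). Slco1a4, listed here as a T4 transporter and known from blood vessels of the brain, measured 0.11, 0.11 and 0.08 FPKM (WT) against 0.46, 0.15 and 0.84 FPKM (KO), without overlap and below the limit for testing.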
